A study of Mus musculus with 4 samples.

Results

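Hepatocyte nuclei of the regenerating mouse liver were divided by where in the liver lobule their open chromatin placed them, and the pericentral nuclei, those of hepatocytes around the central vein, were compared with the periportal nuclei, those around the portal tract. All nuclei came from the library made 48 h after PHx (partial hepatectomy, in which surgeons remove most of the lobes so that the remnant regrows). A nucleus entered when its barcode held at least 3000 counts. Its counts were summed over the peaks at 5 pericentral genes (Cyp2e1, Cyp1a2, Cyp2a5, Glul and Slc1a2) and at 6 periportal genes (Cyp2f2, Hal, Gls2, Hsd17b6, Sds and Amdhd1), each taken as the gene body with 2 kb upstream. The nuclei were thus chosen by their own counts at these genes. Those with at least 4 counts at the 11 genes were kept, and the pericentral share, pericentral counts over the sum of both, called a nucleus pericentral at 0.6 or more and periportal at 0.2 or less. This gave 950 pericentral and 887 periportal nuclei out of 3371 nuclei of sufficient depth and 4973 barcodes in the library, and together the 1837 nuclei made up part of the 20217 barcodes of the 4 libraries of the series.

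The mice were adult male C57BL/6J animals of 10 to 12 weeks, fed a normal diet, and their hepatocytes were isolated by collagenase perfusion. The library of 48 h and that of undamaged liver (0 h, without surgery) were each made from 1 hepatocyte preparation of 1 mouse, and 1 library each was made at 72 and 96 h after PHx. For 72 and 96 h the sources used here leave unstated whether animals were pooled. Each time point therefore had no replicate. The intervals given below are exact 95% Poisson intervals, or for a ratio exact conditional binomial intervals, that cover counting error only, no test between groups was run, and time after PHx and library cannot be told apart.

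Blood enters the liver lobule at the portal tract and leaves at the central vein, and hepatocytes along this path divide their labor. Periportal hepatocytes are known for urea synthesis, amino acid breakdown and gluconeogenesis, whereas pericentral hepatocytes, which receive Wnt ligands from the cells of the central vein, are known for glutamine synthesis, cytochrome P450 enzymes and bile acid synthesis. Single-nucleus ATAC-Seq (scATAC-Seq) reads this division in chromatin: the transposase Tn5 cuts DNA that is open, and each cut is assigned to a nucleus by its barcode.

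The sequences below are reference DNA from within peaks that differed between the groups. The promoters are of genes described below, and the 3 distal windows are the centers of called peaks under 1500 bp and not of those with the most extreme ratios. Capitals mark matches, on either strand, to the core letters of 6 motifs of liver transcription factors, TCF/LEF (CTTTGAT), HNF4A (CAAAGTCCA), FOXA (TGTTTAC), CEBP (TTGCGCAA), AP-1 (TGANTCA) and TEAD (GGAATG). The reverse of the TCF/LEF letters shares its bases CAAAG with the HNF4A letters. The first 5 lines are the bases upstream of the RefSeq start (GRCm38.p6, 5′ to 3′ in the direction of the gene), ended where an annotated exon begins, and the last 3 are the central bases of distal peaks on the plus strand. Cyp2c29, a pericentral P450, lies at chr19:39286835-39287073 on the plus strand, Sp5, a Wnt target, at chr2:70474673-70474922 on the plus strand, Oat, ornithine aminotransferase, at chr7:132576399-132576648 on the minus strand, Ctsc, cathepsin C, at chr7:88277835-88278084 on the plus strand, and Hsd17b13, a lipid droplet protein, at chr5:103977411-103977638 on the minus strand. The window in an intron of Tenm3 is chr8:48517480-48517779, that in an intron of Poc1b is chr10:99154573-99154872, and the intergenic window of chromosome 3 is chr3:51019738-51020037.
Cyp2c29 promoter: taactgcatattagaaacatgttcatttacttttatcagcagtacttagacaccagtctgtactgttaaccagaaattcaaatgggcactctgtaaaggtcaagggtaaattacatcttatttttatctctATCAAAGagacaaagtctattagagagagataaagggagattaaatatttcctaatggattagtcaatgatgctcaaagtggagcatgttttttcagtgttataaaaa
Sp5 promoter: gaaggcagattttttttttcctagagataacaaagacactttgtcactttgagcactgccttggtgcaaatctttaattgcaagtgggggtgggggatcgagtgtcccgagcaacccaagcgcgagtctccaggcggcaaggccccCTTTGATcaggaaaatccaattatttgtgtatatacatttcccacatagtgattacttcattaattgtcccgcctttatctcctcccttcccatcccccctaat
Oat promoter: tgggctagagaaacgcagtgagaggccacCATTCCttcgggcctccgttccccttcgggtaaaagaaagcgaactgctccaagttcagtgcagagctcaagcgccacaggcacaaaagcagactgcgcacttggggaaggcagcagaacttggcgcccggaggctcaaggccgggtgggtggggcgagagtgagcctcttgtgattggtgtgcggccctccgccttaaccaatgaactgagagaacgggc
Ctsc promoter: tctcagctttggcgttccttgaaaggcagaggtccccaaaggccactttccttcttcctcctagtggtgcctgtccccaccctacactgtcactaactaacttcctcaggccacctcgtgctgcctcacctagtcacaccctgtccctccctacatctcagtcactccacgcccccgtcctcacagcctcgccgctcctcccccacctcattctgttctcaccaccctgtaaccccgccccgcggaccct
Hsd17b13 promoter: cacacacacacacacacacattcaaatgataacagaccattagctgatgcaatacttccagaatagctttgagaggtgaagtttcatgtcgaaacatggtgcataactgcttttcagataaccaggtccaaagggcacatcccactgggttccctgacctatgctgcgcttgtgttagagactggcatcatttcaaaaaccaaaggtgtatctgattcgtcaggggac
Tenm3 window: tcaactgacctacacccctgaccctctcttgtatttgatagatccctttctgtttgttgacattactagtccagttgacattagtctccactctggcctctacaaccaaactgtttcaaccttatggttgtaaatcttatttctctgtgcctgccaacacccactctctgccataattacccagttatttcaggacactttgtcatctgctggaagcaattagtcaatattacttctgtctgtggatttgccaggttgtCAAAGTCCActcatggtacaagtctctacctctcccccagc
Poc1b window: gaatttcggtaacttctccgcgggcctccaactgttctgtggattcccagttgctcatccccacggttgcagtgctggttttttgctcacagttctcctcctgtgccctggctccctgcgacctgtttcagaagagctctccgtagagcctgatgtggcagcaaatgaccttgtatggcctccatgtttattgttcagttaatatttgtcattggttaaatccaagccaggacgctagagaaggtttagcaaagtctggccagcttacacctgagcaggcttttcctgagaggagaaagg
chromosome 3 window: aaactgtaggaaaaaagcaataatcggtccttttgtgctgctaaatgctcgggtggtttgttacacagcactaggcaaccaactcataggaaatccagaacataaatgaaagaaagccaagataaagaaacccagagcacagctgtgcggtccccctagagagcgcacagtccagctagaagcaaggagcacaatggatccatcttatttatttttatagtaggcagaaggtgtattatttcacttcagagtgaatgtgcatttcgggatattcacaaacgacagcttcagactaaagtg
The peaks over the promoters of Cyp2c29, Sp5 and Oat were more open in pericentral nuclei, with log2 ratios of pericentral over periportal accessibility of 1.72, 0.64 and 1.29, and those over Ctsc and Hsd17b13 in periportal nuclei, with -1.72 and -1.97. Each ratio is of the whole peak, 1194 bp at Cyp2c29, 5470 bp at Sp5, 13643 bp at Oat, 3124 bp at Ctsc and 25186 bp at Hsd17b13, of which the letters printed are a small part. The Cyp2c29 and Sp5 promoters each held a TCF/LEF match, the Oat promoter a TEAD match, and the Ctsc and Hsd17b13 promoters none of the 6. The peaks around the Tenm3 and Poc1b windows (1457 and 1382 bp) had ratios of 1.24 and 1.17, and that around the chromosome 3 window (1378 bp) -0.94. A match is a description of the letters and not evidence of a bound factor.

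The library of 48 h held 62553202 counts in 158652 peaks, and the 4 libraries ranged from 15809769 to 136949314 counts and from 4645 to 5700 barcodes. Pericentral nuclei were deeper than periportal nuclei at 48 h, with a median of 17149 against 11948 counts per nucleus, and a median of 20 against 14 counts at the 11 genes. Depth ran the same way in the libraries of 0, 72 and 96 h. Among nuclei of 8000 to 25000 counts, where the medians were 14619 and 13562.5, the 493 pericentral and 538 periportal nuclei gave 73 pericentral and 49 periportal genes past 1.5-fold out of 9314 with enough fragments, beside 100 and 62 out of 13619 among nuclei of every depth. The groups had close shares of counts in promoter peaks, 52.1% and 52.2%, and close shares at the markers of other liver cells, 0.0622% and 0.0601%. Between 681 and 882 barcodes were shared by any pair of libraries, and at most 7 of them were pericentral or periportal nuclei in both.

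Both groups carried open chromatin at all 10 hepatocyte markers, whose accessibility summed to 6002 CPM (fragments scaled to a total of 1000000 per group) in pericentral and 7209 CPM in periportal nuclei. Of the endothelial markers 7 of 10 reached 200 fragments, and the list summed to 264 and 254 CPM, and the Kupffer and myeloid list, with 3 of 8, summed to 237 and 225 CPM. In that list Cd68, Spi1 and Csf1r reached 200 fragments, whereas Vsig4 was at 0 in both groups and Lyz2 at 0 in pericentral nuclei. The stellate list, with 4 of 8, summed to 123 and 124 CPM, and Dcn was at 0 in both groups. The cholangiocyte list summed to 38.5 and 53.9 CPM with Krt19 at 0 in both, and the lymphocyte list to 78.1 and 70.9 CPM with Cd8a and Nkg7 at 0. None of the markers of endothelial, myeloid, stellate or lymphoid cells that reached 200 fragments differed by 1.5-fold. Sox9, the only cholangiocyte marker that did reach 200 fragments, was past the limit on the periportal side, with 17.9 and 28.2 CPM. The part of other cells in the results was not tested further, except that leaving out the 5% of nuclei with most counts at these markers kept the counts of genes within 1.5 times their reported values.

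**Figure D1:**
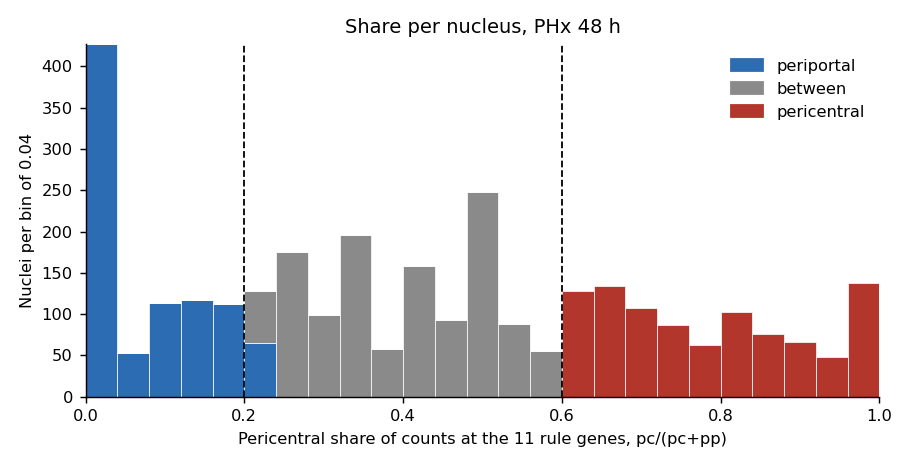
Number of nuclei (vertical axis) by pericentral share (horizontal axis, bins of 0.04) among the 3071 nuclei of 48 h with at least 4 counts at the 11 genes; colors mark periportal (blue), intermediate (gray) and pericentral (red) nuclei and dashed lines the limits of 0.2 and 0.6. Of the 887 periportal nuclei 422 had a share of exactly 0, whereas 131 of the 950 pericentral nuclei had a share of exactly 1, and 1234 nuclei lay between the limits.

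The shares spread over the whole range without a gap at either limit. At the pericentral limit, the 151 nuclei with a share of 0.60 to under 0.65 had a median of 12 pericentral and 7 periportal counts, and the 86 nuclei just outside, from 0.55, had 11 and 8. At the periportal limit, the 191 nuclei above 0.15 had 4 and 16, and the 188 nuclei just outside, up to 0.25, had 4 and 12. The groups are thus ranges of a continuous measure and not cell types. In the whole groups, 192 pericentral and 246 periportal nuclei had only 4 to 9 counts at the 11 genes.

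The genes that chose the nuclei differ by construction, and their values are given as a description. Cyp2e1, an ethanol-inducible P450, had 477 CPM in pericentral and 17.1 CPM in periportal nuclei, and Glul, glutamine synthetase, 294 and 23.6 CPM. Slc1a2, a glutamate transporter, had 260.5 and 53.7 CPM, Cyp1a2 77.1 and 15.1 CPM, and Cyp2a5 52.9 and 5.23 CPM. Cyp2e1 supplied 38.8% of the pericentral counts and the peaks of Slc1a2 25.5%. On the periportal side Hal, histidine ammonia-lyase, had 93.5 CPM in pericentral and 519 CPM in periportal nuclei, and Gls2, liver glutaminase, 69.7 and 224 CPM. Cyp2f2 had 30.3 and 124 CPM, Sds, serine dehydratase, 14.9 and 94.9 CPM, and Hsd17b6 16.7 and 47.2 CPM. Amdhd1 had 157 and 660 CPM. Hal and Amdhd1, neighbors in the same pathway of histidine breakdown, share a long peak, which was counted once. The peaks of Amdhd1, with the shared one, supplied 55.1% of the periportal counts, and the shared peak alone 38.7%. All peaks within 100 kb of the 11 genes were left out of everything that follows.

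Away from these genes, few genes differed by 1.5-fold between the 2 groups of nuclei, although 1399 of 13619 had a counting interval above 0 and 1335 one below 0. Among 13619 protein-coding genes with at least 200 fragments, taken as all peaks over the gene body and 2 kb upstream, 100 genes (0.734%) were at least 1.5-fold more open in pericentral nuclei and 62 genes (0.455%) in periportal nuclei, and the median log2 ratio over all genes was 0.00. Known zonation genes were past this limit in larger shares. Of 30 further pericentral genes 14 were at least 1.5-fold higher in pericentral nuclei and none lower, with a median log2 ratio of 0.53, and all 30 had a ratio above 0, 28 of them with an interval above 0. The count of 14 was 7 with each peak counted at most once per nucleus, 8 in peaks at gene starts alone and 9 in thinned nuclei. Unless nuclei were also thinned, counting once per nucleus was here and below not matched for depth, and pericentral nuclei were deeper. Of 26 further periportal genes 14 were at least 1.5-fold higher in periportal nuclei and none in pericentral nuclei, with a median of -0.60, all 26 below 0 and 23 with an interval below 0. These genes were listed because they are known to be zonated, and the lists were drawn up with earlier results of these data known. Some of them, such as Oat, Cps1, Cyp2c29, Cyp7a1 and Lgr5, also count in the lists below.

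**Figure D2:**
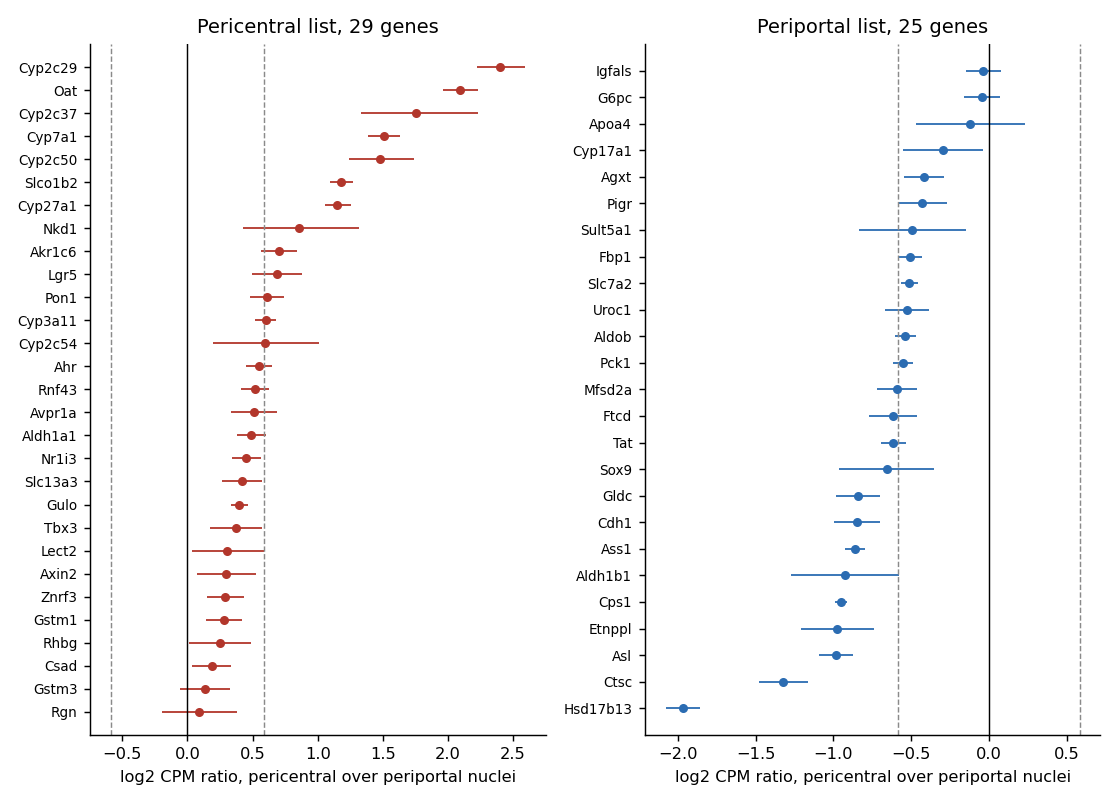
Log2 CPM ratio of pericentral over periportal nuclei at 48 h (horizontal axis) for 29 of the pericentral genes (left, red) and 25 of the periportal genes (right, blue) that were not used to choose nuclei; bars are 95% counting intervals, the solid line is 0 and dashed lines mark 1.5-fold. The pericentral genes run from 0.09 at Rgn to 2.40 at Cyp2c29, and the periportal genes from -0.04 at Igfals to -1.97 at Hsd17b13.

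Cytochrome P450 genes of drug and fatty acid metabolism led the pericentral side. Cyp2c29 (chr19:39269405-39330713) had 220.5 CPM (211 to 229.8) in pericentral and 41.6 CPM (36.8 to 46.9) in periportal nuclei, a 5.29-fold difference. Without Cyp2e1 in the rule its log2 ratio was 1.75 in place of 2.40. Its neighbors in the Cyp2c cluster followed, Cyp2c38 with 20.97 and 4.56 CPM, Cyp2c37 with 27.1 and 7.95 CPM and Cyp2c50 with 71.1 and 25.4 CPM. Over the alternatives the log2 ratio of Cyp2c38, reported as 2.18, ran from 1.52 to 2.56, that of Cyp2c37 (1.76) from 1.25 to 2.54 and that of Cyp2c50 (1.48) from 0.72, at its start peak alone, to 1.93. The Cyp2c genes are similar in sequence, so the division of fragments among them is uncertain. Cyp4a14 (chr4:115486200-115496142) and Cyp4a32, ω-hydroxylases of fatty acids, were 3.02-fold and 2.60-fold higher, with 72.8 against 24.02 CPM and 82.3 against 31.6 CPM. In peaks at their starts alone the log2 ratios were 0.74 and 0.55, the second short of the limit. Aldh3a2 (chr11:61223417-61267464), which oxidizes fatty aldehydes, had 218 CPM (208 to 227) and 83.8 CPM (76.9 to 91.1).

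Oat, which disposes of ornithine and is known as a pericentral enzyme, had 354 CPM (343 to 366) in pericentral and 82.9 CPM (76.1 to 90.3) in periportal nuclei, a 4.27-fold difference. Its peaks also lie under the annotated model of Fgfr2. Cyp7a1 (chr4:6265612-6275633), the rate-limiting enzyme of bile acid synthesis, had 289.6 CPM (279 to 300.4) and 102 CPM (94.01 to 109.7). The 12 genes with the highest ratios also held Atp10a, a lipid flippase, with 35.7 and 13.0 CPM, and Acaa1b, a peroxisomal thiolase, with 275 and 102 CPM. All counts of Acaa1b lay in peaks that also lie over neighboring genes. Dlec1, with 198 and 68.3 CPM, shares 85.4% of its counts with peaks that also lie over neighboring genes such as Acaa1b, so its value is not separate from theirs, and in peaks at its start alone its log2 ratio was 0.20 in place of 1.53. With each peak counted at most once per nucleus, the log2 ratio of Oat was 0.88 in place of 2.09, that of Cyp7a1 0.54 in place of 1.51 and that of Acaa1b 0.60 in place of 1.44.

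On the periportal side Hsd17b13 (chr5:103955440-103977410) stood apart, with 92.2 CPM (86.3 to 98.3) in pericentral and 361 CPM (346 to 376) in periportal nuclei, 3.91-fold higher in the latter. Its log2 ratio of -1.97 was -1.07 with each peak counted at most once per nucleus. Ctsc (chr7:88278085-88310888), a lysosomal protease, was 2.501-fold higher in periportal nuclei, with 53.8 CPM (49.4 to 58.6) and 135 CPM (126 to 144). Enzymes of the urea cycle were among the 12 genes with the lowest ratios. Cps1 (chr1:67123026-67231259), which starts the cycle, had 961 CPM (942 to 980.4) and 1861 CPM (1828 to 1895). Ass1 had 364 and 661 CPM and Asl 126 and 249 CPM. The 12 also held Olfm3 with 12.4 and 27.3 CPM, Aqp8, a water channel, with 39.7 and 78.3 CPM, Etnppl, which breaks down phosphoethanolamine, with 26.9 and 52.9 CPM, Aldh1b1 with 12.6 and 24.02 CPM, and Gm10073 with 14.3 and 26.1 CPM.

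Of 10 genes of the urea cycle and ammonia handling, 5 were at least 1.5-fold higher in periportal nuclei (among them Asl, Cps1, Ass1 and Otc, with log2 ratios from -0.98 to -0.64) and Oat in pericentral nuclei, beside 0.455% and 0.734% of all genes. The mitochondrial ornithine carrier Slc25a15 had -0.23, Nags, which makes the activator of Cps1, had -0.08 and Rhbg, an ammonia transporter, 0.25. Of 22 genes of amino acid breakdown, 3 were called periportal and 1 pericentral, beside the same shares. Gldc of the glycine cleavage system had -0.84, Tat, tyrosine aminotransferase, -0.62 and Ftcd, the last step of histidine breakdown, -0.62, whereas Prodh, which degrades proline, had 0.94 in peaks shared with a neighboring gene. The median of this group was -0.06, with 10 genes above and 12 below 0. In the alternative that brought each nearest to 0, Otc had -0.42, Tat -0.38, Ftcd -0.34, Cps1 -0.40, Gldc -0.15 and Prodh 0.11, short of the limit.

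None of 12 genes of gluconeogenesis and glycogen and none of 12 of glycolysis reached 1.5-fold, beside 1.19% of all genes in either direction. Pck1, the key enzyme of gluconeogenesis, had a log2 ratio of -0.55 (401 and 587 CPM) and Fbp1 -0.51 (285 and 405 CPM), whereas the interval of G6pc, the last step of glucose release, covered 0 (-0.16 to 0.07). The gluconeogenesis and glycogen genes had a median of -0.06, with 2 intervals above and 3 below 0. The glycolysis genes had a median of 0.03, with 3 intervals above and 1 below 0, both beside 1399 and 1335 of the 13619 genes.

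Of genes of fat synthesis and oxidation, 7 were past the limit in pericentral and 1 in periportal nuclei, beside 0.734% and 0.455% of all genes. Of 14 lipogenic genes, Scd1, the stearoyl-CoA desaturase, had 233 CPM in pericentral and 113.5 CPM in periportal nuclei (log2 ratio 1.04), Fasn, fatty acid synthase, 346 and 196 CPM (0.82), and Thrsp, a regulator of lipogenesis, 183.5 and 110.4 CPM (0.73). Acly, ATP citrate lyase, ran the other way with 99.1 and 155 CPM (-0.64), as did Acaca, acetyl-CoA carboxylase, with -0.13 and an interval below 0. In the alternative that brought it nearest to 0, Acly had -0.56, short of the limit. The median of the group was 0.20, with 9 intervals above and 2 below 0, beside 1399 and 1335 of 13619. Of 15 genes of fatty acid oxidation 4 were called pericentral and none periportal, among them Cyp4a14, Ehhadh (83.5 and 51.9 CPM, 0.68) and the receptor Ppara (564 and 369.5 CPM, 0.61). The mitochondrial genes Cpt1a and Acadm had -0.08 and 0.00. With each peak counted at most once per nucleus, Scd1 had 0.31, Fasn 0.02, Thrsp 0.04 and Ppara 0.10, and in peaks at its start alone Ehhadh had 0.26, so that none of these 5 was past the limit.

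Of 19 genes of cholesterol and bile acids, Cyp7a1, Cyp27a1 (361 and 163 CPM, 1.15, in a peak shared with a neighbor) and the canalicular transporter Abcc2 (661 and 430.1 CPM, 0.62) were called pericentral, beside 0.734% of all genes. Of the sterol genes, Insig1, which restrains sterol synthesis, had 0.51 and Hmgcs1, an early enzyme of it, 0.48, below the limit but with intervals above 0. With each peak counted at most once per nucleus, Cyp7a1 had 0.54, Cyp27a1 0.10 and Abcc2 -0.14, short of the limit. Sqle had -0.17 and Cyp8b1, which makes cholic acid, -0.37, each with an interval below 0.

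Of 20 genes of xenobiotic metabolism 6 were called pericentral and none periportal, beside 0.734% and 0.455% of all genes, with a median of 0.36. Beside Cyp2c29, Cyp2c37 and Cyp2c50 these were Cyp3a11 (411 and 271 CPM, 0.60), Cyp2c54 (0.59) and Por, the reductase that feeds electrons to P450 enzymes (493 and 328 CPM, 0.59). All but Por are also in the pericentral list above. With each peak counted at most once, Cyp3a11 had 0.04 and Por -0.04. When nuclei were also thinned, Por was above 0 and Cyp2c54 had 0.26. These 3 genes also lay below the limit without single genes of the rule. The nuclear receptor gene Nr1i3 had 0.45 and Ahr 0.55, whereas Nr1i2 had 0.07 with an interval that covered 0. Of 18 genes of glutathione and NRF2 only Gsta3 was called, beside 1.19% of all genes in either direction, with 377 and 154 CPM (1.29), or 0.49 with each peak counted at most once. The transporter gene Slco1b2, whose product takes up bile acids and drugs, was on the same side (468 and 207 CPM, 1.18).

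Several targets of the Wnt pathway were more open in pericentral nuclei. Of 29 pathway genes 9 had an interval above 0 and 5 below 0 (1399 and 1335 of all 13619), and 3 were called, all pericentral, beside 0.734% of all genes: Nkd1 (16.4 and 9.04 CPM, 0.86), Lgr5 (78.0 and 48.4 CPM, 0.69) and Sp5 (42.9 and 27.4 CPM, 0.64). Lgr5 and Sp5 were short of the limit without Cyp2e1 in the rule, and at their lowest in any alternative had 0.46 and 0.49. The targets Rnf43 (0.52), Tbx3 (0.37) and Axin2 (0.29) had intervals above 0 without reaching 1.5-fold. Ctnnb1, β-catenin itself, had 0.03 and Apc 0.02, both with intervals that covered 0. Tcf7l1, a repressor among the TCF factors, was lower in pericentral nuclei, with 203 and 278 CPM (-0.45), as were the receptor genes Lrp6 (-0.26) and Lgr4 (-0.22), Dvl1 (-0.17) and Tcf7l2 (-0.14), and the median over the group was 0.02.

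Genes of hepatocyte identity and of the regenerative state are given beside 1.19% of all genes past the limit in either direction. Of 24 genes of hepatocyte transcription factors only Ppara reached 1.5-fold, and Hnf4a had -0.06 with an interval of -0.13 to 0.01. None of 23 proliferation genes did, with a median of -0.01, although Ccna2 (38.1 and 28.3 CPM, 0.43) and Pcna (123 and 93.3 CPM, 0.39) had intervals above 0 and 1 gene an interval below 0. None of 13 immediate early genes, 24 genes of plasma proteins or 19 receptors and signaling genes of regeneration was called. Within these groups Hpx, which binds heme, had -0.58, Hes1, a Notch target, -0.51, Fosb -0.38 and Egfr -0.26 (2090 and 2502 CPM). Of the immediate early genes 5 had intervals above and 5 below 0, and of the plasma protein genes 3 and 10. The receptors and signaling genes had 1 and 3, beside 1399 and 1335 of all 13619 genes. Among 15 genes of growth hormone and IGF only Igfbp1 was called, with 0.68, or 0.03 with each peak counted at most once, whereas Igf1 had -0.47 and Ghr 0.35, or -0.07 in peaks at its start sites alone. Of 9 factors of the fetal state only Sox9, also the cholangiocyte marker named above, was called, with -0.66 (-0.24 when thinned and counted at most once), and of 6 progenitor genes none.

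Levels in nuclei between the groups were described in 5 bins of the share; the genes with extreme ratios were picked on the nuclei of the outer bins, so their order is a description. In the 5 bins, from the 887 periportal nuclei through 663, 571 and 519 nuclei to 431 nuclei at 0.8 or more, 11 of the 12 genes with the highest ratios had a higher CPM in each successive bin, Cyp2c38 being the exception, and 11 of the 12 with the lowest ratios had a lower CPM in each, with Olfm3 as the exception. Oat went from 82.9 through 122, 172 and 268 to 478 CPM. Hsd17b13 went from 361 through 271, 191 and 106 to 72.1 CPM, and Cps1 from 1861 through 1600.5, 1485 and 1182 to 644 CPM. The nuclei of the 2 bins between the groups, which did not choose these genes, had levels between theirs at these 3 genes. Of the 30 pericentral genes 17 were higher in each successive bin and of the 26 periportal genes 16 were lower in each, against 1 of the 23 proliferation genes in either direction. None of the 3 midlobular genes with enough fragments did. Hamp, hepcidin, had its highest level, 74.7 CPM, in the middle bin and 51.5 and 41.6 CPM in the outer bins. The other two were highest elsewhere, Igfbp2 in the periportal bin (194 CPM, and 119 CPM in the highest bin) and Cyp8b1 in the next (63.8 and 46.1 CPM).

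**Figure D3:**
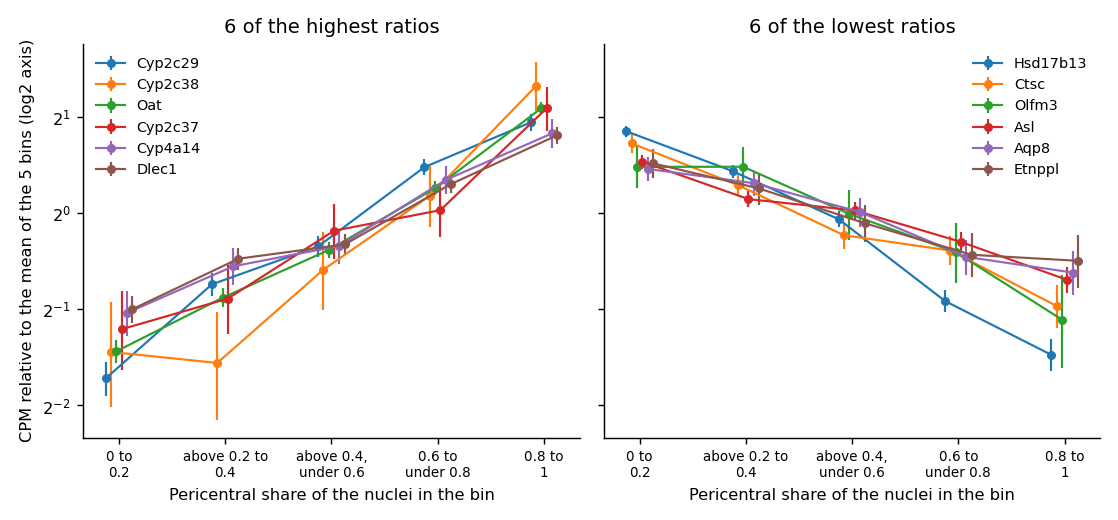
CPM relative to the mean of the 5 bins (vertical log2 axis) by pericentral share of the nuclei (horizontal axis) for 6 of the genes with the highest ratios (left) and 6 of those with the lowest (right); bars are 95% counting intervals and the points of a bin are set apart for legibility. Oat climbs from 82.9 CPM in the lowest bin to 478 CPM in the highest, and Hsd17b13 declines from 361 to 72.1 CPM.

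Distal peaks, those more than 2 kb from any transcription start site, had larger shares past the limit than genes. Of 7777 with at least 200 fragments, 177 (2.28%) were at least 1.5-fold more open in pericentral and 125 (1.61%) in periportal nuclei. At matched depth, distal peaks were set beside promoter peaks and not genes: among those of 200 to 400 fragments 4.04% of distal peaks and 1.73% of promoter peaks were called, and among those of 400 to 800 fragments 2.92% and 0.733%. Of the pericentral distal peaks 124 lay in a protein-coding gene and 53 between genes, and of the periportal 82 and 43. The median length was 3389 and 2725 bp and the median distance to a start site 11401 and 10469 bp.

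The distal peaks with the highest ratios lay in few genes, and those with the lowest in 6 genes. Of the 6 with the highest ratios 4 lay in Cyp2c29, led by chr19:39312496-39319907 with 51.2 CPM (46.9 to 55.8) in pericentral and 6.80 CPM (4.94 to 9.12) in periportal nuclei, a 7.46-fold difference. Of the other two, chr7:132550227-132566239 over the 3′ part of Oat was 6.91-fold higher, and chr11:61241918-61246523 in Aldh3a2 5.99-fold. On the periportal side the lowest ratio was at chr10:4731277-4735308 in Esr1, the estrogen receptor gene, with 9.26 CPM (7.48 to 11.3) and 26.03 CPM (22.2 to 30.3). It was followed by peaks in 5330417C22Rik, Alcam, B4galt5, Prepl and Sfxn1, 2.10-fold to 2.44-fold higher in periportal nuclei. Ghr held 5 pericentral distal peaks, although the gene as a whole did not reach 1.5-fold, and Tcf7l1, Cdh1 and Alcam held 2 periportal ones each.

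Within a gene, peaks could differ by far more than the promoter. In Aldh3a2 the peak over the start had a log2 ratio of 0.51, whereas 3 peaks inside the gene had 2.51, 2.73 and 2.58. In Gldc the promoter peak had -0.27 with an interval that covered 0 (-0.72 to 0.20), and the peaks 4.34, 8.30 and 10.3 kb inside the gene had -1.73, -1.96 and -1.76. In Oat the peak over the start had 1.29 and that over the 3′ part 2.79. Ctsc ran the other way, with -1.72 at its start, -2.29 and -1.32 in the next 2 peaks of at least 50 fragments and -0.33 and -0.24 at its end. In Lgr5 peaks 26.2 and 81.9 kb inside the gene had 1.35 and 1.104 against 0.60 at its start, and a smaller peak 8.03 kb inside it, of 40 fragments, had 2.21. The gene totals above average over such peaks.

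**Figure D4:**
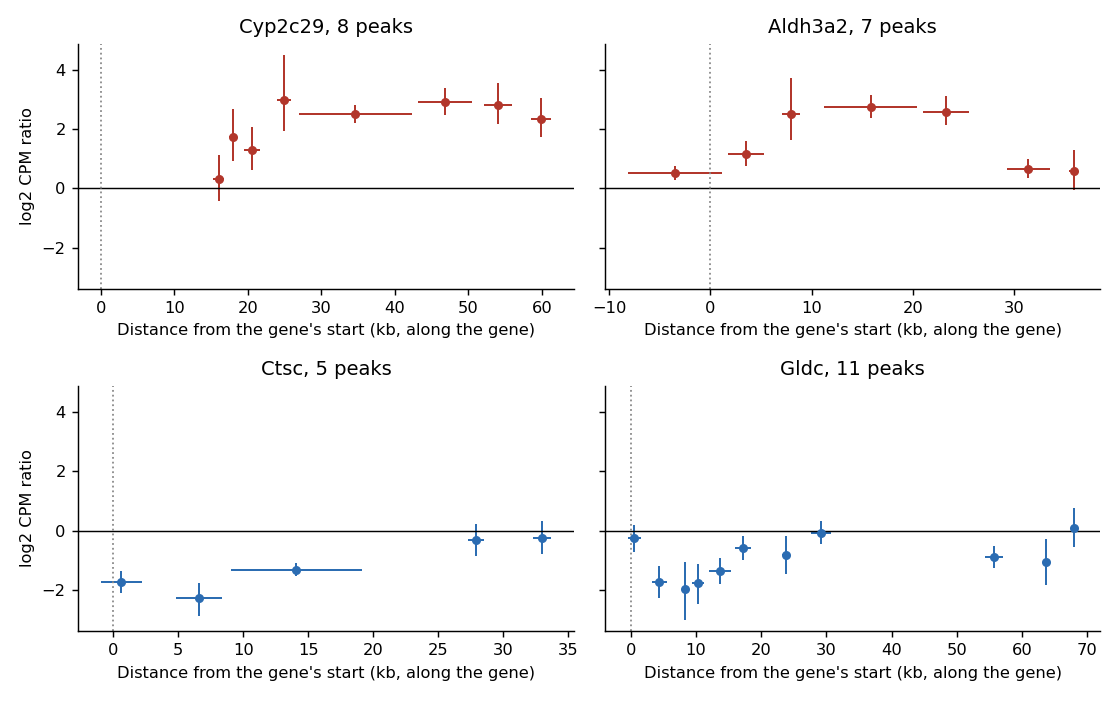
Log2 CPM ratio of pericentral over periportal nuclei (vertical axis) for peaks of at least 50 fragments against the distance of the peak's center from the annotated gene start (horizontal axis, kb); horizontal bars show the length of the peak and vertical bars the 95% counting interval. The annotated start of Cyp2c29 lies upstream of its RefSeq start, over which the peak with 1.72 lies; the ratios reach 2.97 in Cyp2c29, 2.73 in Aldh3a2, -2.29 in Ctsc and -1.96 in Gldc.

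Motif letters were counted in the central 300 bases of distal peaks. AP-1 letters stood in 24 of 177 pericentral windows (13.6%) and 5 of 125 periportal windows (4%), beside 10.8% of all 7777, and TEAD letters in 23.7%, 15.2% and 16.5%. TCF/LEF letters stood in 5.65%, 6.4% and 5.12%, FOXA in 4.52%, 4.8% and 6.198%, HNF4A in 2.26%, 0% and 1.08%, and CEBP in none of the called windows. The window covers only part of most distal peaks. Among the 557 peaks of 300 to 1500 bp, which the window covers better, only 8 were pericentral and 13 periportal, and TCF/LEF letters stood in 1 and 0 of them. RefSeq promoters were at hand for 74 of the 100 pericentral and 47 of the 62 periportal genes. In their 250 bases TCF/LEF letters stood in 5.41% and 4.26% beside 2.92% of 10502 promoters of all genes compared, and TEAD letters in 20.3% and 14.9% beside 13.2%. AP-1 letters stood in 4.05% and 2.13% beside 5.68%, FOXA letters in 5.41% and 2.13% beside 2.73%, HNF4A letters in 2.70% and 0% beside 0.448%, and CEBP letters in none of the called beside 0.295%.

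The same division of nuclei in the other libraries served as a check on the 48 h genes in nuclei that did not select them. It gave 795 pericentral and 1596 periportal nuclei at 0 h, 655 and 703 at 72 h and 404 and 431 at 96 h. Of the 100 pericentral genes of 48 h, 97 had enough fragments at 0 h, 88 had the same sign there and 54 were called in the same direction, against a background of 1.48% of genes called pericentral at 0 h. Of the 62 periportal genes 61 had enough fragments, 57 had the same sign and 46 were called, against 1.69%. At 72 h 60 of 61 and 31 of 31 had the same sign, with 17 and 11 called against 0.508% and 0.466%, and at 96 h 41 of 43 and 20 of 21, with 14 and 8 called against 0.801% and 0.63%. Across all genes the log2 ratios of 48 h correlated with those of 0 h at r = 0.52 over 13519 genes, of 72 h at 0.37 over 7077 and of 96 h at 0.45 over 3494; genes are not independent replicates, and the ratios share the rule that divided the nuclei.

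As a list, the pericentral genes had a smaller median ratio at 48 h than at 0 h. Their median log2 ratio was 0.82 at 0 h, 0.53 at 48 h, 0.36 at 72 h over 22 genes and 0.30 at 96 h over 17, with 18, 14, 4 and 3 genes called, beside 1.48%, 0.734%, 0.508% and 0.801% of all genes with enough fragments in each library. The periportal median was -0.60 at 0 h and 48 h, -0.47 at 72 h and -0.49 at 96 h. Since the libraries differ in depth, the nuclei were also divided after thinning each to 3000 counts. This gave medians of 0.72 over 30 genes at 0 h and 0.55 over 28 genes at 48 h for the pericentral list, and of -0.56 over 26 and -0.62 over 22 genes for the periportal list. At 72 h the 2 medians were 0.43 and -0.46, each over 16 genes, and at 96 h 0.35 over 9 and -0.69 over 12. The difference between time points was not tested.

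Some genes had ratios farther apart between 0 h and 48 h than the lists. Among Wnt targets, Lgr5 had 52.4 CPM in pericentral and 18.3 CPM in periportal nuclei at 0 h (log2 ratio 1.52) beside 0.69 at 48 h, Sp5 1.61 beside 0.64 and Tbx3 1.104 beside 0.37. Rnf43 had 0.50 and 0.52, and with shares taken after thinning 0.51 and 0.72. Cyp3a11 had 1.79 beside 0.60 with 327 and 94.6 CPM at 0 h. Alb, albumin, had -1.15 at 0 h and -0.10 at 48 h. After thinning, Lgr5 had 1.57 and 0.56, Sp5 1.64 and 0.78, Cyp3a11 1.61 and 0.79, and Alb -1.01 and -0.14. Urea cycle genes ran the other way: Ass1 had -0.27 at 0 h and -0.86 at 48 h, and Cps1 -0.59 and -0.95.

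Fasn, Hmgcs1 and Insig1 lay on opposite sides of 0 at 0 h and 48 h, whereas others such as Scd1 did not. The peaks of each library were called separately, so ratios and not levels are compared between libraries. At 0 h Fasn had 568 CPM in pericentral and 701 CPM in periportal nuclei (-0.30) beside 0.82 at 48 h, 0.17 at 72 h and 0.59 at 96 h. Hmgcs1 had -0.46 at 0 h beside 0.48 at 48 h, and Insig1 -0.15 beside 0.51. At 72 h Hmgcs1 had -0.05 and Insig1 -0.03, and at 96 h 0.12 and 0.19. Scd1 was on the pericentral side at both times, with 0.27 at 0 h and 1.04 at 48 h, and again 1.04 at 96 h, as was Thrsp, with 0.12 and 0.73. Divided after thinning to 3000 counts, the nuclei gave Fasn -0.29 at 0 h and 0.91 at 48 h, Hmgcs1 -0.44 and 0.61 and Insig1 -0.11 and 0.53. Fasn, Hmgcs1 and Insig1 each lie in 1 peak of 17027 to 32431 bp, and that of Hmgcs1 also lies over a neighboring gene. When each peak was counted at most once per nucleus, Fasn had 0.02, Hmgcs1 -0.20 and Insig1 -0.23 at 48 h. When nuclei were first thinned to equal depth and then counted so, they had 0.56, 0.28 and 0.35.

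**Figure D5:**
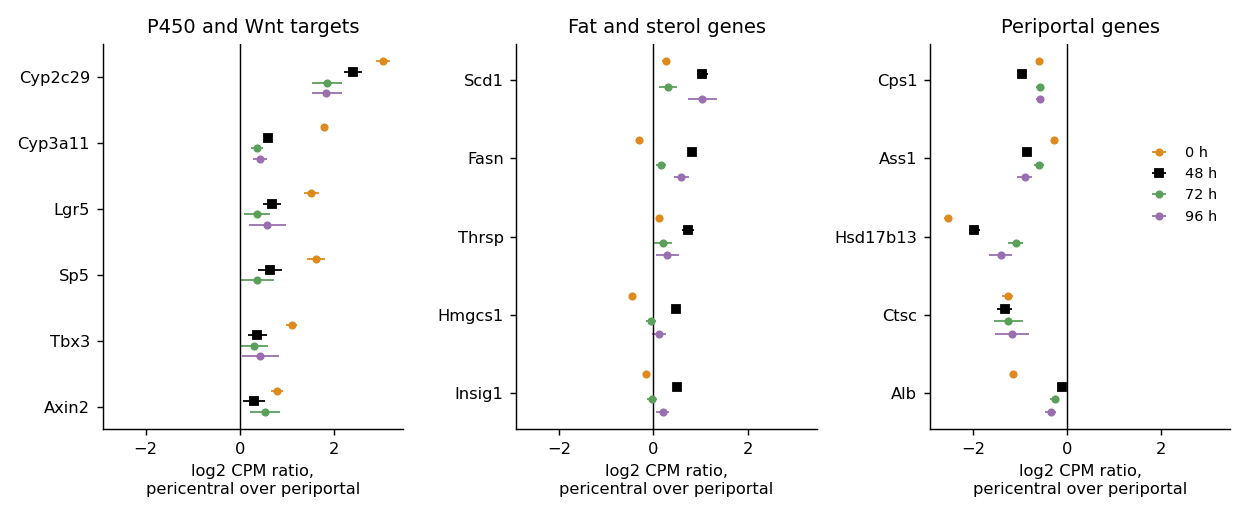
Log2 CPM ratio of pericentral over periportal nuclei (horizontal axis) for 16 genes in each library, 0 h (orange), 48 h (black squares), 72 h (green) and 96 h (purple), with 95% counting intervals; points with under 200 fragments are not drawn. The Wnt targets drawn and Cyp3a11 lie farther right at 0 h than at 48 h, Fasn, Hmgcs1 and Insig1 lie on opposite sides of 0 at 0 h and 48 h, and Cps1 and Ass1 lie farther left at 48 h.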

How the data were processed

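The authors deposited, for each of the 4 libraries, a matrix of counts, each count a Tn5 cut site in a peak and barcode, made with Cell Ranger ATAC 1.1.0 on mm10 per the file headers and the submitters' processing notes. Peaks were called per library, 1 library per time point, so no test was possible. Genes were GENCODE M21 protein-coding models, and nuclei of the 48 h library were selected and divided as stated in the report. Fragments were taken as counts divided by 2 and scaled to a total of 1000000 (CPM) over peaks more than 100 kb from the 11 genes, without chromosomes Y and M. Log2 ratios had 0.5 fragments added, intervals were exact at 95%, and genes or peaks with at least 200 fragments were called at 1.5-fold. No doublet caller was run; the deepest 5% of nuclei were left out as an alternative. Named were the 12 genes and 6 distal peaks with the largest and smallest ratios whose intervals excluded a ratio of 1, up to 6 genes per list, and the 11 genes. The members and gene lists were chosen with earlier results of these data known. Motifs were to be counted in distal peaks of 300 to 1500 bp, and all lengths were added after these proved few. Some genes that these rules name are not reported here. The calculation was tested on simulated data. Python 3.11.15, NumPy 2.4.6, SciPy 1.17.1, pandas 2.3.3 and matplotlib 3.10.9 were used.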

Additional observations from a re-analysis of the deposited data

Results flagged for a closer look

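Among the genes named here or held in the gene lists, and not among all genes, 7 were found for which the ratio of pericentral over periportal accessibility was past 0, by its counting interval, in one direction at 48 h and in the other, at least 1.5-fold apart, in another library. Each value comes from 1 library, and none of these differences was tested. The log2 ratios at 48 h and at 0 h were 0.82 and -0.30 for Fasn, 0.51 and -0.15 for Insig1, and 0.48 and -0.46 for Hmgcs1. The growth hormone receptor gene Ghr had 0.35 at 48 h, -0.25 at 0 h and -0.30 at 96 h. The AP-1 family gene Fosb had -0.38 at 48 h and 0.57 at 0 h, and the stress-induced Atf3 -0.15 and 0.49. Nr2f1, a nuclear receptor gene, had 0.37 and -0.28. With nuclei divided after thinning to 3000 counts, Nr2f1 had -0.04 and -0.16 and Atf3 -0.04 and 0.44, whereas Fosb had -0.49 and 0.49. Divided so, Ghr had 0.31 at 48 h and -0.18 at 0 h, under 1.5-fold apart, and at 96 h too few fragments.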

How the results depend on the processing

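Of 31 other settings, 4 of them chosen after seeing the data, the following moved a count by over 1.5 times or turned a direction, with pericentral values given before periportal ones. As reported, 13619 genes and 7777 distal peaks had enough fragments. Shares of at least 0.7 and at most 0.1 left 530 periportal nuclei and called 90 and 54 of 2690 distal peaks. Without the deepest 5% of nuclei 113 and 83 of 5134 distal peaks were called, and without Cyp2e1 in the rule 548 nuclei were pericentral. The setting without Hal could not change a result, because its only peak also lies over Amdhd1 and stayed in. That shared peak was left out of the rule in no setting. Binarised counts called 52 and 32 genes, 7 of the pericentral list and 79 and 49 distal peaks, and gave log2 ratios of -0.14 for Abcc2, -0.040 for Por, -0.18 for Elovl5, -0.20 for Hmgcs1 and -0.23 for Insig1. The cause was not tested; thinned to 3000 counts and then binarised, these 5 were above 0 (0.04 for Elovl5 to 0.35 for Insig1), with 299 and 254 genes, 9 of the periportal list and 566 and 578 distal peaks called at a minimum of 50. Thinning alone left 3359 genes and 89 distal peaks with enough fragments, of which 54 and 28 genes, 9 of the pericentral list and 5 and 1 distal peaks were called. A minimum of 50 fragments called 236 and 154 of 16160 genes and 2717 and 2211 of 40760 distal peaks, and a fold of 2 called 21 and 3 genes, 7 and 2 of the lists and 28 and 10 distal peaks. Peaks within 1 kb of a start gave 8 of the pericentral list and -0.072 for Ghr, and of 4177 distal peaks over 10 kb from a start 97 and 66 were called. Nuclei of 8000 to 25000 counts, 493 and 538, called 73 and 49 of 9314 genes and 34 and 29 of 1495 distal peaks. Shares taken after thinning gave 566 and 472 nuclei, 64 and 43 of 2334 distal peaks and -0.045 for Nr2f1, with 101 and 60 of 10568 genes. Of 63 named genes followed, 7 with an interval on one side of 0 had another sign under any setting, as had Elovl6, whose interval covered 0. No paired analysis was possible because each time point had 1 library.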
